A study of Mus musculus with 6 samples.

Results

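The genes described here mark the endothelial cells that line blood and lymphatic vessels. They were taken by symbol from the tables of mandibular condylar cartilage, the growth cartilage at the jaw joint, and all 39 were found among the 24346 genes listed. By their usual use as markers they were grouped as 28 pan-endothelial, 4 arterial, 4 venous and 3 lymphatic genes. RNA came from dissected condylar cartilage of 3 control libraries, given as fl/fl (the usual notation for a floxed gene), and 3 mutant libraries from mice in which Ihh, the gene for Indian hedgehog, was deleted in craniofacial neural crest cells. The labels name neither the Cre line nor the age, sex or strain of the mice. Nor do they say that the libraries of a group were from different animals, and p-values therefore reflect only the scatter of these samples, part of which may be technical.

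Endothelial cells are held together by adhesion proteins such as PECAM1, VE-cadherin and claudin-5, and they grow in response to VEGF and angiopoietin ligands through the receptors of the Kdr and Tie families. Arteries, veins and lymphatics keep separate identities through factors such as ephrin-B2, COUP-TFII and PROX1. Mature cartilage is largely without vessels, which lie in the perichondrium, the adjoining bone and muscle, and at the front where hypertrophic cartilage is invaded. Endothelium of the head derives from mesoderm and not from the neural crest, where Ihh was deleted.

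Values were read as FPKM, a unit the headers do not name, that is fragments scaled to transcript length and library depth. On that reading, levels can be compared between genes. The number of fragments per library is unknown, and column sums ran from 581072 to 738395. As a level of background served the genes of olfactory receptors, largely silent outside the nose, with a 90th percentile of 6.49 to 8.58 FPKM over the 6 libraries (1102 genes). Cartilage markers were present in every library, with Acan at 27.2 to 33.1 FPKM in controls and 9.51 to 14.6 FPKM in mutants. Skeletal muscle transcripts were abundant throughout, with Acta1 at 1396 to 3038 FPKM in controls and 6603 to 11154 FPKM in mutants. For Ihh itself, controls 1, 2 and 3 were listed at 3.73, 2.51 and 3.74 FPKM and mutants 1, 2 and 3 at 2.18, 2.33 and 2.66, all below that background. Xist was at 29.5 and 29.2 FPKM in controls 1 and 2 and at 0.577 to 0.984 FPKM in control 3 and the mutants, so that the sexes of the mice were unequal between the groups.

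The comparison asked how vessel genes differed between mutant and control cartilage. Pecam1, Cldn5 and Tie1, a junctional adhesion gene, a tight junction gene and an orphan receptor gene of endothelium, rose in mutants, and no member fell (3 of 39 at a limma adjusted p below 0.05 over all genes, where 0.775% of the 18715 genes tested were called higher). At an unadjusted p below 0.05, 24 of 39 were higher and 0 lower, beside 7.94% of all genes higher and 6.11% lower. All 3 mutant values lay above all 3 control values in 32 of 39 members, beside 9.77% of all genes, and the reverse was seen in 0 of 39, beside 9.4%. The members' median log2 fold change was 0.77, beside 0.00085 for all genes tested. All log2 fold changes here are differences of log2(FPKM + 1). This scale understates the change of genes at low values. Of the 39 members, 37 had a positive log2 fold change (50.1% of all genes did), also after quantile normalization and after median scaling, and 16 had one of at least 1, which 4.6% of all genes had. In bulk tissue, more endothelial cells and more RNA of these genes per cell cannot be told apart.

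The called members depended on single libraries, and so did the calls over all genes, 232 in the main fit. Calls over all genes were 13, 20, 19 and 57 without control 1, control 2, mutant 1 and mutant 2. They were 199 without control 3 and 414 without mutant 3. The number of called members was 0 without control 1, control 2, mutant 1 or mutant 2. It was 8 without control 3 and 3 (Pecam1, Esam and Tek) without mutant 3. It was 10 with a filter at 5 FPKM and 0 with controls 1 and 2 left out together. All 39 members passed the filter of at least 1 FPKM in at least 3 libraries, none of them through the mutants alone. Members below the olfactory 90th percentile in all 6 libraries numbered 7 (Vwf, Apln, Tal1, Gja5, Flt4, Lyve1 and Prox1), and 13 lay at or above it in all 6. Robo4 and Sox17 lay below it in 5 libraries, and Flt1, Tek, Clec14a and Nos3 in 4.

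**Figure D1:**
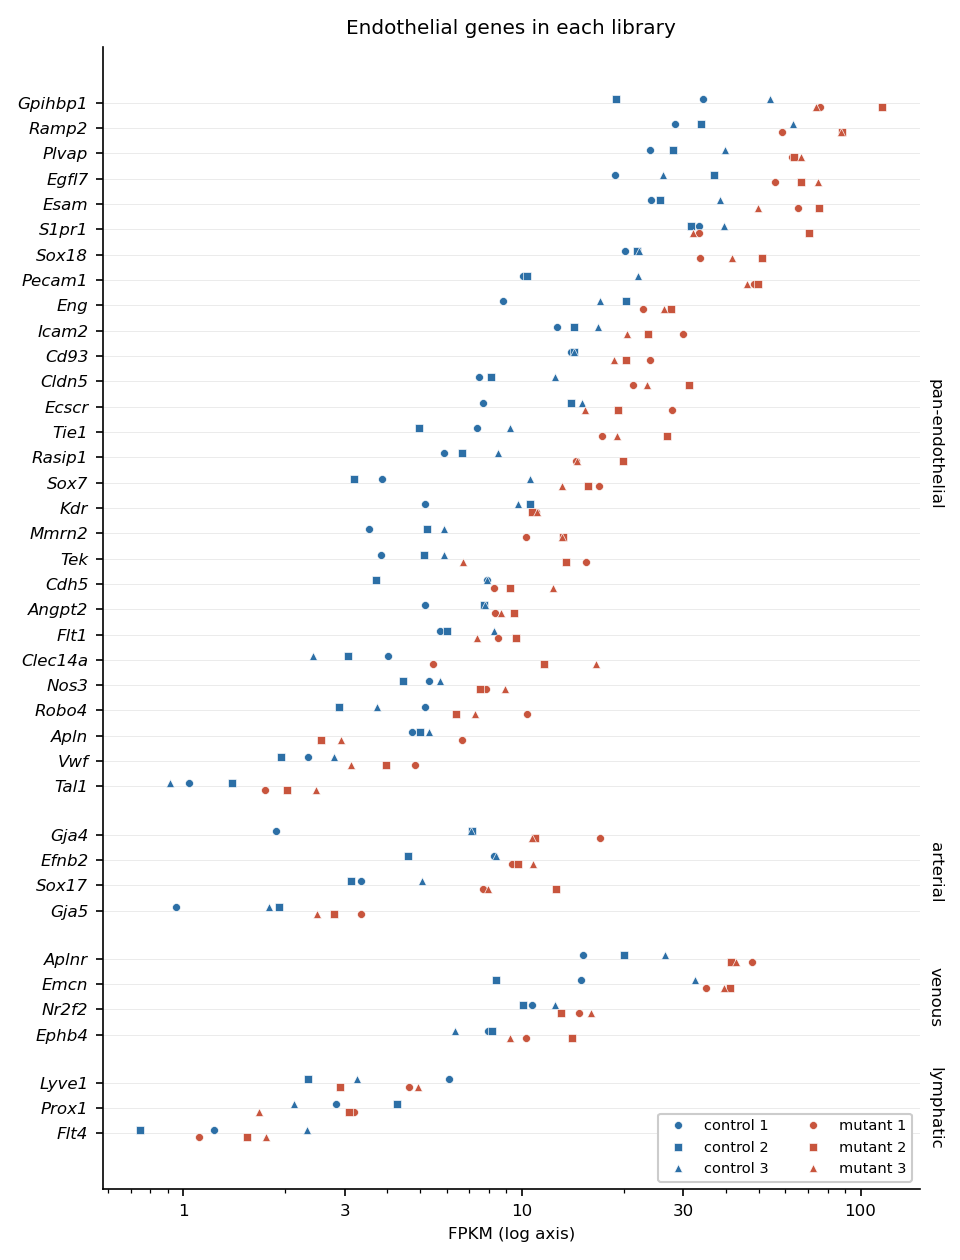
FPKM of the 39 endothelial genes (rows, by group and then by mean level; log axis) in each of 3 control libraries (blue) and 3 mutant libraries (red), with a marker shape for each replicate number. In 32 rows every red point lies to the right of every blue point, and in the 3 lymphatic rows the colours mix.

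Of the genes of endothelial junctions and adhesion, Pecam1 showed the largest difference. Pecam1, whose product joins neighbouring endothelial cells and is also found on platelets and leukocytes, maps to chromosome 11, minus strand, 106654217 to 106750628 (mm10). Controls 1, 2 and 3 were at 10.1, 10.3 and 22.0 FPKM, against 48.6, 49.9 and 46.1 FPKM in mutants 1, 2 and 3, the order in which libraries are given from here on. The mutants lay close together and far above every control, and control 3 was the highest control. The log2 fold change was 1.79 ± 0.29 (SE; limma adjusted p = 0.0294), with means of 14.1 ± 6.83 and 48.2 ± 1.92 FPKM (SD, n = 3 per group). The adjusted p was 0.105 without control 1, 0.0993 without control 2, 0.117 without mutant 1 and 0.0939 without mutant 2, in a range from 0.00969 to 0.887 over all alternatives.

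Cldn5, the main claudin of endothelial tight junctions, maps to chromosome 16, plus strand, 18776847 to 18778262. Its level was 7.49, 8.12 and 12.5 FPKM in controls against 21.3, 31.2 and 23.5 in mutants, with no overlap and the highest control again control 3. It rose by 1.36 ± 0.25 on the log2 scale (limma adjusted p = 0.0453), and passed without control 3 (0.0397) but with none of the other libraries left out (0.0604 to 0.148), in a range from 0.0235 to 0.927 over all alternatives. Esam, an adhesion gene of endothelium and platelets, did not pass (adjusted p = 0.0688, from 0.0347 to 0.990 over the alternatives), at 24.1, 25.5 and 38.4 FPKM in controls against 65.2, 75.3 and 49.7 in mutants. Icam2, a ligand for leukocyte integrins, had means of 14.6 ± 2.08 and 24.6 ± 4.77 FPKM, and Ecscr, a surface regulator of endothelial migration, 12.2 ± 3.96 and 20.8 ± 6.36 FPKM, both without overlap and both short of the test (adjusted p of 0.170 and 0.328).

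Cdh5 encodes VE-cadherin, the adherens junction protein that defines endothelium. It was listed at 7.92, 3.71 and 7.89 FPKM in controls against 8.30, 9.20 and 12.4 in mutants. Mutant 1 was thus only slightly above controls 1 and 3, and the log2 fold change was 0.59 ± 0.31 (adjusted p = 0.465).

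Among the receptors, Tie1 was the member that passed. Tie1, an orphan receptor that modulates angiopoietin signalling, maps to chromosome 4, minus strand, 118471191 to 118490061. It measured 7.39, 4.96 and 9.25 FPKM in controls against 17.3, 26.8 and 19.1 in mutants. Every mutant was above every control, and controls 1 and 2 lay below the olfactory 90th percentile of their libraries for Tie1 as for Cldn5. The log2 fold change was 1.44 ± 0.27 (limma adjusted p = 0.0466). Like Cldn5, it passed without control 3 (0.0499) and not without any other library (0.0624 to 0.147), in a range from 0.0245 to 0.954 over all alternatives. Tek, the angiopoietin receptor TIE2, was at 3.85, 5.14 and 5.90 FPKM in controls against 15.5, 13.5 and 6.69 in mutants. Mutant 3 stood just above control 3 and far below the other mutants, and Tek did not pass (log2 fold change 1.05 ± 0.33, adjusted p = 0.173); without mutant 3 it did (0.0492, the lowest of a range up to 0.984).

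Neither VEGF receptor passed the test. Kdr, the main signalling receptor for VEGF-A, was at 5.17, 10.6 and 9.77 FPKM in controls against 11.03, 10.7 and 11.1 in mutants. Controls 2 and 3 lay just under the mutants, and only control 1 was clearly lower. Flt1, which binds VEGF-A with high affinity and limits its signal, measured 5.73, 5.997 and 8.26 FPKM in controls against 8.49, 9.63 and 7.39 in mutants, and the groups overlapped. Their log2 fold changes were 0.38 ± 0.28 and 0.32 ± 0.24 (adjusted p of 0.639 and 0.658).

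Clec14a, a C-type lectin receptor of sprouting endothelium, had the second largest log2 fold change among the members (1.46 ± 0.38, adjusted p = 0.110), from 4.02, 3.07 and 2.41 FPKM in controls to 5.47, 11.6 and 16.6 FPKM in mutants. Its mutants differed among themselves by more than its controls did. All 3 controls and mutant 1 lay below the olfactory 90th percentile of their libraries for Clec14a. Cd93, a related lectin receptor, was at 14.1 ± 0.17 and 21.0 ± 2.64 FPKM, and Robo4, an endothelial roundabout receptor, at 3.94 ± 1.15 and 8.004 ± 2.09 FPKM, without overlap (adjusted p of 0.248 and 0.208). Eng, a co-receptor for TGF-beta and BMP ligands that other stromal cells also express, was at 8.81, 20.2 and 17.0 FPKM in controls against 22.9, 27.5 and 26.2 in mutants (adjusted p = 0.275).

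Ramp2, which pairs with a G protein-coupled receptor to bind adrenomedullin, was among the 3 pan-endothelial genes of highest mean level. It measured 28.3, 33.8 and 63.0 FPKM in controls against 58.8, 88.1 and 87.5 in mutants, so that control 3 exceeded mutant 1 (log2 fold change 0.95 ± 0.31, adjusted p = 0.189). S1pr1, a receptor for sphingosine 1-phosphate found on many cell types, also overlapped between the groups, at 33.3, 31.5 and 39.5 FPKM in controls against 33.3, 70.2 and 32.0 in mutants, with mutant 2 alone standing out.

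The other 2 most abundant pan-endothelial genes belong to capillaries. Gpihbp1, which holds lipoprotein lipase on the capillary surface of muscle and fat, was at 34.3, 19.03 and 54.1 FPKM in controls against 75.7, 116.0 and 74.0 in mutants. Every mutant was above every control, the controls were widely spread, and the test was not passed (log2 fold change 1.37 ± 0.35, adjusted p = 0.108). Plvap, which forms the diaphragms of fenestrated capillaries, was at 23.9, 27.9 and 39.9 FPKM in controls against 62.8, 63.4 and 66.8 in mutants. These mutant values were nearly level, and the adjusted p of 0.0529 (log2 fold change 1.08 ± 0.22) was just short of the threshold, in a range from 0.0289 to 0.869 over the alternatives.

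Of the secreted and surface products, Egfl7, an endothelial matrix protein whose gene hosts the endothelial miRNA miR-126, came as close. It was at 18.9, 36.9 and 26.1 FPKM in controls against 56.0, 66.5 and 74.9 in mutants (log2 fold change 1.28 ± 0.26, adjusted p = 0.0521, from 0.0277 to 0.729 over the alternatives). Mmrn2, an endothelial matrix ligand of Clec14a and Cd93, had means of 4.90 ± 1.21 and 12.2 ± 1.66 FPKM (adjusted p = 0.0632). Nos3, the endothelial nitric oxide synthase, was at 5.18 ± 0.65 and 8.10 ± 0.73 FPKM, and Vwf, the clotting factor carrier also made by megakaryocytes, at 2.36 ± 0.42 and 3.98 ± 0.86 FPKM (adjusted p of 0.319 and 0.472).

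Angpt2 and Apln encode ligands of sprouting vessels. Angpt2, the antagonist ligand of TIE2, was at 6.90 ± 1.49 and 8.83 ± 0.61 FPKM, without overlap between the groups (log2 fold change 0.33 ± 0.24, adjusted p = 0.639). Apln, the ligand of the apelin receptor, was the only pan-endothelial gene with a negative log2 fold change (-0.34 ± 0.34, adjusted p = 0.752), at 4.73, 5.002 and 5.33 FPKM in controls against 6.64, 2.56 and 2.92 in mutants. Mutants 2 and 3 lay under every control and mutant 1 above every control.

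The transcription factors and intracellular regulators of endothelium were higher in every mutant than in any control, beside 9.77% of all genes. None passed the test. Sox18, a SoxF factor of vessel development, was the most abundant, at 20.2, 21.8 and 22.2 FPKM in controls against 33.6, 51.3 and 41.6 in mutants (log2 fold change 0.93 ± 0.21, adjusted p = 0.0693). Its relative Sox7 was at 3.87, 3.21 and 10.6 FPKM in controls against 16.9, 15.7 and 13.2 in mutants, with control 3 close to mutant 3 and the adjusted p 0.120, or 0.0283 without control 3. Rasip1, a Ras-interacting protein needed for vessel lumens, had means of 7.03 ± 1.35 and 16.3 ± 3.10 FPKM (adjusted p = 0.0629). Tal1, a factor of blood and endothelial progenitors, stayed between 0.913 and 2.47 FPKM.

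**Figure D2:**
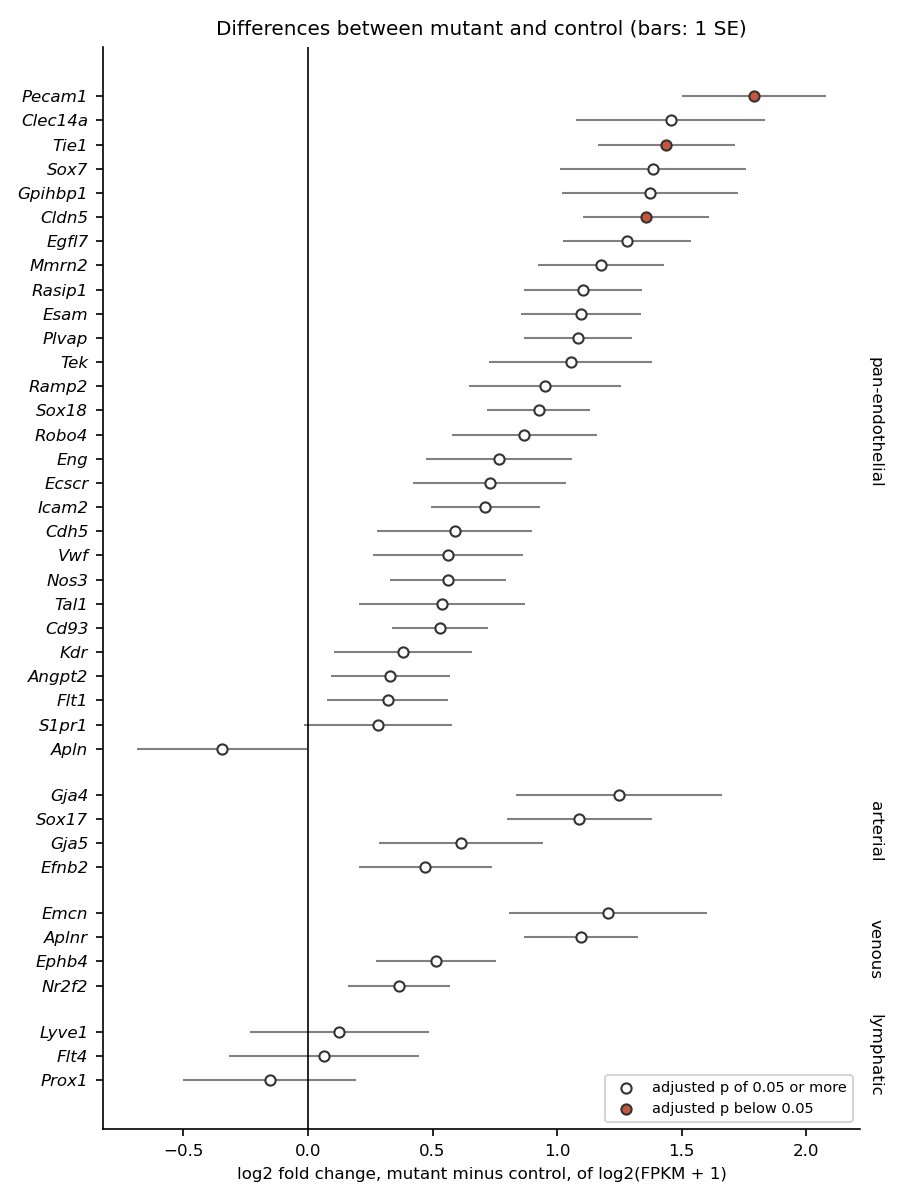
Log2 fold change of each of the 39 endothelial genes, mutant minus control, on the scale of log2(FPKM + 1), with bars of 1 SE from limma (3 libraries per group). Filled points mark Pecam1, Tie1 and Cldn5, which had an adjusted p below 0.05, and the lymphatic genes lie around 0.

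Ratios within a library are given as a description with no test, since the denominator, Pecam1, is the member of the largest difference and was chosen after the values were seen. The ratio of Kdr to Pecam1 was 0.515, 1.02 and 0.443 in controls and 0.227, 0.215 and 0.240 in mutants. That of Cldn5 to Pecam1 was 0.745, 0.784 and 0.570 in controls and 0.439, 0.624 and 0.509 in mutants, and overlapped between the groups. The ratios of Tie1 and Tek to Pecam1 overlapped too. Those of Cdh5 and Flt1 were lower in every mutant than in any control, as for Kdr.

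All 4 arterial genes were higher in every mutant than in any control, beside 9.77% of all genes, and none passed the test. Gja4, the gap junction gene of connexin 37, was at 1.88, 7.11 and 7.07 FPKM in controls against 17.0, 10.97 and 10.7 in mutants (log2 fold change 1.25 ± 0.41, adjusted p = 0.203). Sox17, the arterial SoxF factor, was at 3.36, 3.12 and 5.09 FPKM in controls against 7.69, 12.6 and 7.93 in mutants (1.09 ± 0.29, adjusted p = 0.118). Control 1 was by far the lowest library for Gja4, while for Sox17 the controls lay close together.

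Efnb2, whose product ephrin-B2 marks arteries but is also made by chondrocytes and mesenchyme, was at 8.29, 4.60 and 8.39 FPKM in controls against 9.32, 9.72 and 10.8 in mutants. Gja5, the gene of connexin 40, was at 0.954, 1.92 and 1.79 FPKM in controls against 3.35, 2.78 and 2.49 in mutants. The lowest mutant was close to the highest control in both, at adjusted p of 0.506 and 0.472.

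The 4 venous genes were likewise higher in every mutant than in any control, beside 9.77% of all genes, and none passed. Aplnr, the apelin receptor, was at 15.1, 20.0 and 26.5 FPKM in controls against 47.8, 41.6 and 42.9 in mutants (log2 fold change 1.10 ± 0.23, adjusted p = 0.0598, from 0.0335 to 0.879 over the alternatives). Emcn, an endothelial sialomucin of veins and capillaries, was at 15.0, 8.38 and 32.5 FPKM in controls against 35.0, 41.2 and 39.5 in mutants. Control 3 lay next to the mutants for Emcn, whose log2 fold change of 1.20 ± 0.40 (adjusted p = 0.20) was 0.24 when controls 1 and 2 were left out; without control 3 it passed (adjusted p = 0.0414).

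Ephb4, the venous receptor for ephrin-B2, was at 7.92, 8.15 and 6.33 FPKM in controls against 10.3, 14.1 and 9.22 in mutants (adjusted p = 0.390). Nr2f2, which encodes COUP-TFII and is also active in mesenchyme, was at 10.7, 10.1 and 12.5 FPKM in controls against 14.7, 13.03 and 16.0 in mutants (adjusted p = 0.504). In both genes the mutants were above the controls by margins no wider than the spread within the mutants.

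No difference was detected in the lymphatic genes, whose levels all lay in the range of silent genes. Flt4, the receptor for VEGF-C, was at 1.24, 0.746 and 2.32 FPKM in controls against 1.11, 1.54 and 1.76 in mutants. Lyve1, a hyaluronan receptor of lymphatics and of some macrophages, was at 6.09, 2.34 and 3.27 FPKM in controls against 4.65, 2.90 and 4.95 in mutants. Prox1, the factor of lymphatic identity that muscle also expresses, was at 2.83, 4.28 and 2.13 FPKM in controls against 3.19, 3.10 and 1.68 in mutants. The groups overlapped in all 3, with log2 fold changes of 0.06 ± 0.38, 0.13 ± 0.36 and -0.15 ± 0.35 and adjusted p from 0.906 to 0.967. Their difference from the blood vessel genes was not tested.

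Promoters of the members were read for AGGAAG, a form of the site bound by ETS factors, which many endothelial genes are known to use. RefSeq windows (GRCm38.p6) were found for 20 of the 39 members, and the 250 bases before each start were searched on both strands. AGGAAG or its complement was in 11 of 24 windows of members (45.8%), beside 29.5% of all 32851 windows. The 4 windows below touch no annotated exon, and are shown for a called member and the angiopoietin receptor, both without a match, and for a VEGF receptor and Eng with 2 matches each, with the matches in capitals. They are Cldn5 (chr16:18776597-18776846, plus strand), Tek (chr4:94739039-94739288, plus strand), Flt1 (chr5:147726012-147726261, minus strand) and Eng (chr2:32646345-32646594, plus strand), each written 5′ to 3′ on the strand of the gene.
Cldn5: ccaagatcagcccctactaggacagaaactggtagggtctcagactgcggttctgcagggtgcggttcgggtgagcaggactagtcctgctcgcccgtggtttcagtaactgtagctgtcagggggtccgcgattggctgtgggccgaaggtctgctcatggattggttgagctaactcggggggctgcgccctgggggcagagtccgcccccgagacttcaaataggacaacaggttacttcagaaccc
Tek: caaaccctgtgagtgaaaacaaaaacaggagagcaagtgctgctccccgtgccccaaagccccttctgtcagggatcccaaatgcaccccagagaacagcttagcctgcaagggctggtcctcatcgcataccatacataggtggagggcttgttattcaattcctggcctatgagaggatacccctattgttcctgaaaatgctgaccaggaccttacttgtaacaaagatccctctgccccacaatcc
Flt1: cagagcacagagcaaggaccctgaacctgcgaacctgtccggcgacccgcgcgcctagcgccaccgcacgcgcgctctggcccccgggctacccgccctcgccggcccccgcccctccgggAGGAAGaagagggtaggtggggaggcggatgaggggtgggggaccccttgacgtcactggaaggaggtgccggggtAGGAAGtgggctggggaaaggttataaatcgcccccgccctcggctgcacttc
Eng: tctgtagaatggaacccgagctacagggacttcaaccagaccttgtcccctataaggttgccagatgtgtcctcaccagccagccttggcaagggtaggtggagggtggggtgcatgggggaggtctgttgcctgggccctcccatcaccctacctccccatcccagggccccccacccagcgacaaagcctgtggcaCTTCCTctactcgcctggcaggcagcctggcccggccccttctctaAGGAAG
Of the other called members, Tie1 held 1 match and Pecam1 was not among the windows searched.

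The controls differed among themselves in these genes. Control 3 was the highest control in 26 of 39 members, beside 37.9% of all genes, and the lowest of the 6 libraries was control 1 in 20 members and control 2 in 14. Control 3 shared with the mutants the lack of Xist, and a part of sex in these differences was not tested beyond the values given here. All 3 mutants were above control 3 in 32 of 39 members, beside 27.6% of all genes, and all were below it in 1, Flt4.

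With controls 1 and 2 left out, the signed log2 fold change was lower in 32 of 39 members and its median 0.52. These include Apln, which went from -0.34 to -0.42, and Flt4, which went from 0.06 to -0.43. In that fit the single control was assumed to vary as the mutants do. That of Pecam1 was then 1.10 (adjusted p = 0.330), that of Cldn5 0.94 (0.493) and that of Tie1 1.08 (0.470). Clec14a (1.73) and Egfl7 (1.29) had the largest values in that comparison. The value of Clec14a rests on 2.41 FPKM in control 3, below the olfactory 90th percentile of that library (6.49 FPKM). With Xist as a covariate the members' median was 0.54, and Pecam1 stood at 1.12 (adjusted p = 0.199). Xist was high in controls 1 and 2 only. The fit with Xist therefore also rested on control 3 for its difference between the groups, and is not a separate check.

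**Figure D3:**
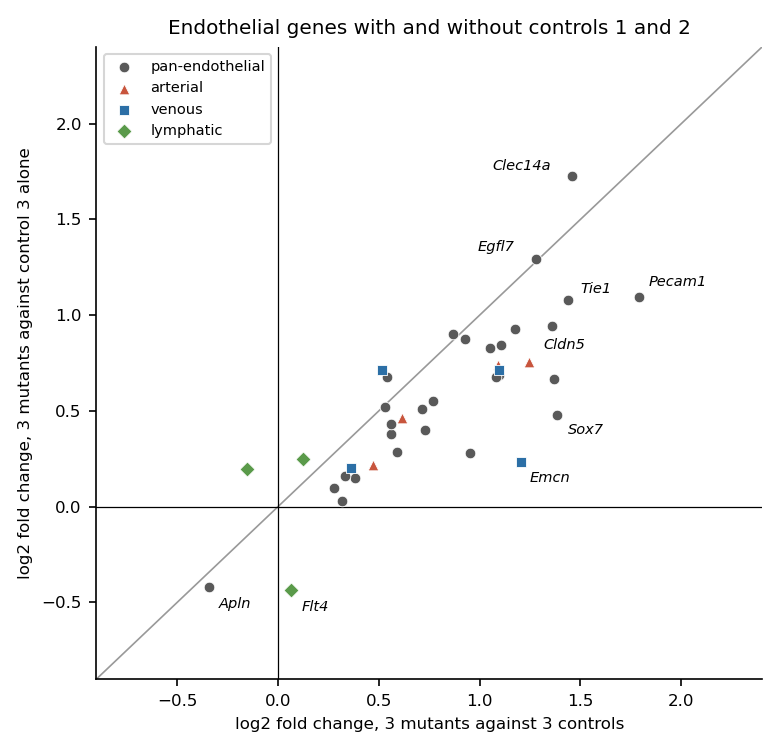
Log2 fold changes of the 39 endothelial genes from 3 mutants against 3 controls (x axis) and from 3 mutants against control 3 alone (y axis), with the line of equal values in grey. Most points lie under the line and above 0, Emcn and Sox7 lie far under it, and Clec14a lies above it.

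Of 32 further endothelial genes that are not members, 30 were tested, and Cd36 and Ly6c1 rose (2 of 30, beside 0.775% of all genes called higher; 0 fell). Cd36, a fatty acid transporter of capillaries that muscle and fat also express, was at 17.9, 10.8 and 22.0 FPKM in controls against 104.2, 175.0 and 59.5 in mutants (log2 fold change 2.59 ± 0.39, adjusted p = 0.0250, from 0.00828 to 0.985 over the alternatives). Ly6c1, a surface protein of capillaries and monocytes, was at 31.0, 30.8 and 50.3 FPKM in controls against 94.2, 179.8 and 131.7 in mutants (1.82 ± 0.28, adjusted p = 0.0268, from 0.0127 to 0.887 over the alternatives). In both genes mutant 2 was the highest library. Neither passed without control 1, control 2, mutant 1 or mutant 2 (adjusted p of 0.0562 to 0.101 for Cd36 and of 0.0602 to 0.105 for Ly6c1), and neither passed with the replicate block, with either covariate or with controls 1 and 2 left out together. The median log2 fold change over the 30 genes was 0.77, with 25 of 30 positive (50.1% of all genes) and 16 of 30 without overlap on the higher side (9.77% of all genes).

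The ETS factors Fli1 and Erg, chosen after their values were seen, were at 7.84 ± 1.28 and 15.3 ± 1.29 FPKM (adjusted p = 0.0896) and at 1.36 ± 0.79 and 2.84 ± 0.48 FPKM (adjusted p = 0.421). Ets1, an ETS factor of the same list, was more abundant and overlapped between the groups. It was at 19.1 ± 1.08 and 21.7 ± 3.03 FPKM (log2 fold change 0.16 ± 0.19, limma adjusted p = 0.803). Selp and Sele, which encode the selectins of inflamed endothelium, were also chosen after their values were seen. They were at 2.61 ± 1.31 and 2.19 ± 0.38 FPKM and at 2.67 ± 0.98 and 2.57 ± 0.59 FPKM, with overlapping groups.

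Among 21 tested genes of vessel growth signals, ligands, co-receptors and Notch genes, none passed the test. At an unadjusted limma p below 0.05, 7 were higher and 0 lower, beside 7.94% and 6.11% of all genes. The groups did not overlap in 9 on the higher side and 1 on the lower side, beside 9.77% and 9.4% of all genes. The smallest p belonged to Angptl4, a secreted inhibitor of lipoprotein lipase that also acts on vessels, and to Vegfb, a ligand of Flt1 that oxidative muscle makes in quantity. Angptl4 was at 4.10, 14.0 and 9.56 FPKM in controls against 69.5, 116.5 and 25.7 in mutants (log2 fold change 2.70 ± 0.55, adjusted p = 0.0586, from 0.0118 to 0.968 over the alternatives). Vegfb was at 8.59, 7.92 and 18.9 FPKM in controls against 52.6, 45.2 and 21.7 in mutants (1.68 ± 0.40, adjusted p = 0.0843, from 0.0308 to 0.971). In both, mutant 3 lay nearest to the controls, and without it both passed. So did the chemokine gene Cxcl12, named after its values were seen, at 29.7, 25.5 and 36.4 FPKM in controls against 64.9, 89.9 and 47.6 in mutants (1.09 ± 0.26, adjusted p = 0.0843, from 0.0368 to 0.952).

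Vegfa, the chief ligand of Kdr, lay the other way. It was at 21.7, 28.1 and 26.4 FPKM in controls against 19.9, 18.5 and 18.5 in mutants, without overlap and without passing the test (log2 fold change -0.40 ± 0.19, adjusted p = 0.406); it is named here after its values were seen. Of 9 inhibitors of vessel growth, none rose or fell. At an unadjusted limma p below 0.05, 1 was higher and 0 lower, beside 7.94% and 6.11% of all genes. Timp3, a matrix inhibitor that blocks VEGF binding to Kdr, was at 54.2 ± 9.77 and 81.4 ± 22.0 FPKM, and Cnmd, the chondromodulin gene of avascular cartilage, at 21.4 ± 4.04 and 14.7 ± 5.83 FPKM (adjusted p of 0.348 and 0.452).

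Markers of other cell types were read beside the members. All 4 cartilage markers were lower in every mutant than in any control, beside 9.4% of all genes. Acan and Col9a1 fell (2 of 4, beside 0.465% of all genes called lower). Acan had a log2 fold change of -1.27 ± 0.22 (limma adjusted p = 0.0370, from 0.0197 to 0.730 over the alternatives). Col9a1, a collagen gene of cartilage, had one of -1.75 ± 0.33 (limma adjusted p = 0.0453, from 0.0223 to 0.566). All 5 skeletal muscle markers had a positive log2 fold change, beside 50.1% of all genes. Acta1, Ckm, Myh1 and Tnnt3 rose (4 of 5, beside 0.775% of all genes called higher). The 5 markers summed to 2080 to 4519 FPKM in controls and 9357 to 17246 FPKM in mutants, with no marker at 0. With the muscle list's mean as a covariate, 31 of 39 members had a positive log2 fold change, none passed, and the median was 0.46, with Pecam1 at 1.13 (adjusted p = 0.887) and Tie1 at 0.43 (0.954). The muscle mean was 6.91 to 7.56 in controls and 8.64 to 9.97 in mutants, without overlap, so this fit cannot separate muscle from group. The SE of Pecam1 was 0.73 in it, against 0.29 in the main fit. The part of muscle in the members' difference was therefore not tested.

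Of the 7 pericyte markers none rose or fell. At an unadjusted limma p below 0.05, 2 were higher and 1 lower, beside 7.94% and 6.11% of all genes. Rgs5, a regulator of G protein signalling in pericytes, was at 18.4 ± 4.96 and 29.9 ± 3.49 FPKM and Cspg4, the proteoglycan NG2 that cartilage also makes, at 27.3 ± 5.24 and 14.4 ± 3.39 FPKM (adjusted p of 0.213 and 0.118). The 7 markers summed to 75.9 to 111 FPKM in controls and 96.1 to 113 FPKM in mutants, and the 3 smooth muscle markers to 20.1 to 25.3 and 19.2 to 27.9 FPKM. Both sums overlapped between the groups. Cspg4 alone of the 7 had a negative log2 fold change, and leaving it out was an alternative added after the values were seen. The other 6 markers summed to 54.2, 50.8 and 78.0 FPKM in controls against 92.2, 82.7 and 94.9 in mutants, with no overlap. All 6 had a positive log2 fold change, which followed from that choice. The groups overlapped in the markers Kcnj8, Notch3 and Higd1b, and these sums are a description with no test. The 39 members summed to 388 to 584 FPKM in controls and 861 to 1018 FPKM in mutants.

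Blood cells carry some of the same genes. The 4 platelet markers summed to 36.9 to 47.1 FPKM in controls and 24.6 to 65.8 FPKM in mutants, with Gp9 at 0 in controls 1 and 3 and mutant 1 and Ppbp at 0 in mutant 3. Macrophage markers (4 genes, 32.3 to 70.7 and 25.8 to 83.3 FPKM) and leukocyte markers (4 genes, 32.9 to 45.0 and 34.9 to 85.8 FPKM) overlapped likewise, with no marker at 0. The 3 erythroid markers summed to 638 to 2738 and 1178 to 2763 FPKM, none at 0, and their mean of log2(FPKM + 1) was higher in every mutant (7.44 to 8.82) than in any control (5.26 to 6.78). Among them Hba-a1 was at 51.9, 186.5 and 3.92 FPKM in controls against 406.0, 1721 and 788 in mutants, but it shares reads with a near-identical copy, and the split between them is uncertain.

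**Figure D4:**
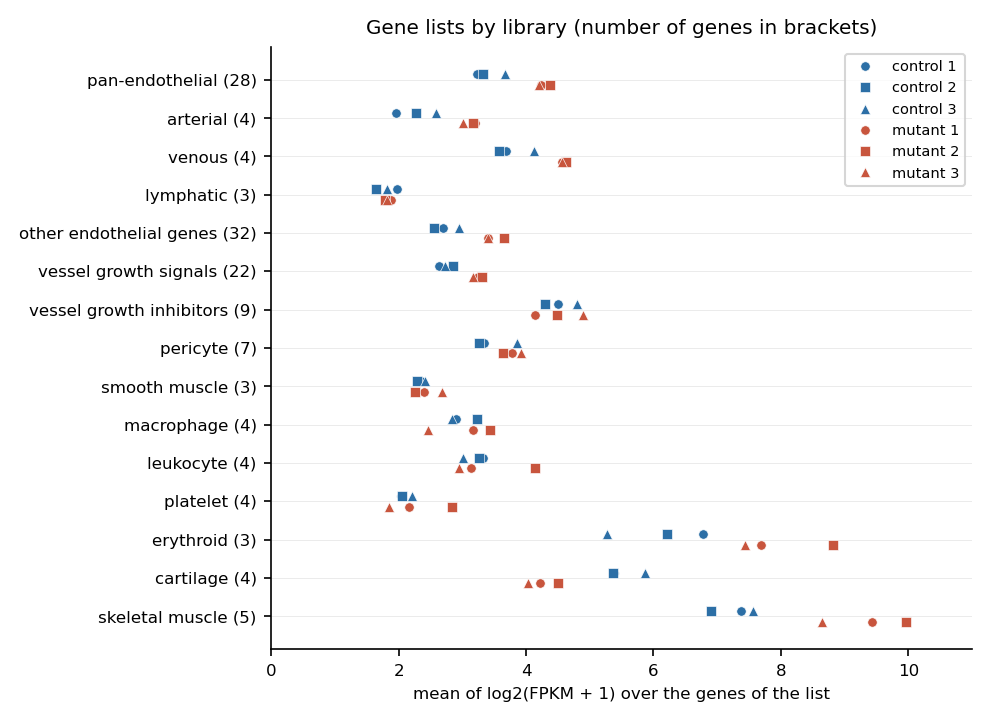
Mean of log2(FPKM + 1) over the genes of each list (rows, number of genes in brackets) in each of 3 control libraries (blue) and 3 mutant libraries (red). Pan-endothelial, arterial, venous and other endothelial genes, vessel growth signals, erythroid and skeletal muscle markers are higher in every mutant than in any control, cartilage markers are lower, and lymphatic, pericyte, macrophage and leukocyte lists overlap.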

How the data were processed

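Condylar cartilage RNA of 3 control and 3 mutant libraries was made into full-length cDNA with the SMART-Seq HT Kit and into Nextera libraries, per the labels' protocols, which do not keep strand. The authors deposited 1 table per library with values read here as FPKM, because the headers name no unit, values are not whole and column sums differ. Per the submitters' processing notes, the build was mm10 and the tools included Cufflinks 2.2.1 and SAMtools 0.1.19, beside the aligners Bowtie2 2.2.3 and TopHat2 2.0.13. Exons of 10 members (Ecscr, Eng, Egfl7, Nos3, Rasip1, Gja5, Sox17, Ephb4, Nr2f2 and Prox1) overlap genes on the opposite strand (GENCODE M21), whose reads cannot be told apart. Ramp2, Egfl7 and Rasip1 overlap others on the same strand.

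A minimum of 1 FPKM in 3 or more libraries left 18715 genes. Their log2(FPKM + 1) values were compared between the groups in R 4.3.3 by limma 3.58.1 (limma-trend, robust moderation, group as the only term) and adjusted over all genes by the Benjamini-Hochberg method, with a threshold of 0.05. The fit was tested on simulated data. Members, lists and alternatives were chosen with earlier results of these data known. Named were all members, with every library's values for called members, for the 3 most abundant pan-endothelial genes and for the smaller groups, and from each further list up to 4 called genes or else the 2 of smallest p. Vegfd and Cnmd were matched by older symbols. Blood and smooth muscle markers were described by their sums, and Hba-a1 was named after its values were seen. Alternatives were other normalization, filters, pseudocount, moderation, array weights, a replicate block, leaving out libraries, and Xist or muscle as a covariate.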

Additional observations from a re-analysis of the deposited data

How the results depend on the processing

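Over all genes, the count of 232 was 411 after quantile normalization, 133 with no filter, 440 with a filter at 5 FPKM, and 13 to 414 when 1 library was left out. It was 2 with the Xist covariate, 2 with the muscle covariate and 5 with controls 1 and 2 left out together. The count of 3 called members was 6 after quantile normalization and with array weights, 1 after median scaling, with no filter, with a pseudocount of 0.1 and with moderation that was not robust, and 10 with a filter at 5 FPKM, where 33 members were tested. Leaving out 1 library gave 0 to 8, and both covariates and the loss of controls 1 and 2 gave 0. The causes were not tested. With the replicate number as a block, 0 members and 2 genes passed. Same-numbered libraries deviated from their group means with correlations of 0.006, -0.016 and -0.009 over all genes tested. No pairing by number was seen, and these values cannot exclude one.

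Among members, directions turned only in those with no call. The muscle covariate gave log2 fold changes of -0.30 for Flt1, -0.18 for Tek, -1.17 for S1pr1, -0.031 for Vwf, -0.27 for Gpihbp1 and -0.28 for Flt4. With the Xist covariate and with controls 1 and 2 left out, Flt4 was at -0.43 in both and Prox1 at 0.19 and 0.20. Leaving out 1 library gave -0.080 to 0.47 for S1pr1, -0.15 to 0.31 for Flt4, -0.12 to 0.43 for Lyve1 and -0.33 to 0.056 for Prox1. For further genes named outside the 39 members, the same alternatives were chosen after seeing the data. The muscle covariate gave -0.29 for Vegfb, -0.30 for Cxcl12, 0.42 for Cnmd, 0.24 for Selp and 0.69 for Sele. With the Xist covariate and with controls 1 and 2 left out, Selp was at 0.19 in both and Sele at 0.47 in both. Leaving out 1 library gave -0.29 to 0.15 for Selp and -0.26 to 0.13 for Sele. Levels under the olfactory 90th percentile lie in the range of silent genes, where these libraries resolve little.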
